A study of Homo sapiens with 27 samples.

Results

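The olfactory receptor genes of human chromosome 11 were taken as the protein-coding genes of the RefSeq GRCh38 gene table on that chromosome whose symbols have the form OR, a family number, letters and a number. The rule found 171 genes among 19817 protein-coding genes on chromosomes 1 to 22 and X. Of these, 168 had a position on the chromosome itself and were counted. OR8U8, OR8U9 and OR9G9 carried positions of another sequence in the table and were not counted. Each gene was extended by 5 kb on both sides and overlapping stretches were merged, which gave 122 intervals with 2403324 bp. TRIM68, MMP26 and ZNF215 touched the merged intervals.

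Olfactory receptors are G protein-coupled receptors of the nasal sensory neurons, each of which transcribes one receptor allele from the large family. Most of the genes have a single coding exon, lie in tandem clusters of AT-rich DNA, and are held in silent chromatin in other tissues. Class I receptors (families 51, 52 and 56) descend from receptors shared with fish, and class II receptors are the larger, land-vertebrate branch. The label of these genes as silent, closed clusters could not be checked here, because neither RNA nor chromatin was measured in the LN-229 cells.

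The study mapped O6-methylguanine, the mutagenic lesion that the alkylating drug temozolomide (TMZ) leaves on guanine, at single-base resolution in LN-229, a human glioblastoma line. Fragments with the lesion were enriched by immunoprecipitation, and the place where a polymerase stalled marked the base. WT cells, which are the transfection control line, and MGMT cells, which are transfected with the repair enzyme that takes the methyl group off the lesion, received 1 mM TMZ or 1% DMSO as solvent, and their DNA was isolated at 24 h, counted from the start of treatment. The 8 cell groups were WT and MGMT cells given TMZ 1 time, given TMZ 3 times at intervals of 4 h, given solvent 1 time, or given solvent 3 times, with 3 biological replicates each. Naked DNA, purified first and then exposed to 1 mM TMZ, gave 3 more libraries, from non-transfected LN-229 cells (replicate 1), WT cells (replicate 2) and MGMT cells (replicate 3). All 27 libraries thus come from 1 cell line, and the solvent libraries are the background of the method.

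The values of a library are its distinct marked bases, so a site counts 1 time per library whatever number of molecules carried it. The autosomes held 717619 to 5477076 G sites with a score of at least 30 per TMZ library, 165195 to 797936 per solvent library and 5121979 to 8822222 per naked library. G was 32.6% to 64.1% of the marked bases outside the receptor intervals in TMZ libraries, 19.0% to 43.7% in solvent libraries and 67.8% to 70.9% in naked DNA. Libraries also fell into sets that shared more sites with each other than other pairs did, by a threshold of 1.6 times the median pair. Replicate 1 of the cells exposed 1 time and naked replicate 1 formed set 1, replicate 2 of the cells exposed 1 time and replicate 1 of those exposed 3 times formed set 2, and replicate 3 of the cells exposed 1 time with replicate 2 of all cells and replicate 3 of TMZ cells, both exposed 3 times, formed set 3. The 2 solvent libraries of replicate 3 after 3 exposures (set 4) and naked replicates 2 and 3 (set 5) stood apart from these. One solvent library, MGMT replicate 1 after 1 exposure, also stood apart from the other solvent libraries. G was 43.7% of its marked bases outside the receptor intervals, where the solvent median was 19.7%. The TMZ library of MGMT replicate 1 after 1 exposure had 37.4%, less than its solvent counterpart. The other solvent library of set 1, WT replicate 1 after 1 exposure, had 27.8% and was kept throughout. The cause was not tested. Results with solvent libraries are given without the MGMT library where it moves them, which was chosen after seeing the data.

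The 168 genes formed 7 clusters when a gap over 1 Mb ended a cluster (GRCh38, chromosome 11). Cluster 1 ran from OR52B4 to OR10A3 (chr11:4367263-7941708) and held 67 genes, among them all 55 class I receptors. Cluster 2 ran from OR4B1 to OR4A47 (chr11:48216810-48489722, 7 genes), and cluster 3 held OR4C13 and OR4C12 (chr11:49952391-49982535). Cluster 4 ran from OR4C46 to OR5AK2 (chr11:54603069-56989843, 48 genes), and cluster 5 from OR9Q1 to OR10V1 (chr11:58023881-59713845, 21 genes). Cluster 6 was OR2AT4 alone (chr11:75081753-75096890), and cluster 7 ran from OR6X1 to OR8A1 (chr11:123753580-124571374, 22 genes).

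Upstream sequences of 4 receptors show the kind of DNA in which the marks fell. They are the 250 bases before the gene start on the strand of the gene, from RefSeq (GRCh38.p14). Capitals mark each G, or each C that lies opposite a G, that was a marked G site in naked DNA or in TMZ cells.

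OR5A2: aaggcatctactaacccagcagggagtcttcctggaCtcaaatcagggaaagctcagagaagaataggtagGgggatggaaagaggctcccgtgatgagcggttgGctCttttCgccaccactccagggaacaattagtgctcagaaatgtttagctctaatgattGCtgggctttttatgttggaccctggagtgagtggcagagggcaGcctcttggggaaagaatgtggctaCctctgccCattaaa
OR56B1: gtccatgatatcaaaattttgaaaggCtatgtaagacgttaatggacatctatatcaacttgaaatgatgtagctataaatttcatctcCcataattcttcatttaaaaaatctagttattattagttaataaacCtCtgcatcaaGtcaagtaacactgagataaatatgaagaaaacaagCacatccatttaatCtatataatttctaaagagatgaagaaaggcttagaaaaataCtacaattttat
OR51S1: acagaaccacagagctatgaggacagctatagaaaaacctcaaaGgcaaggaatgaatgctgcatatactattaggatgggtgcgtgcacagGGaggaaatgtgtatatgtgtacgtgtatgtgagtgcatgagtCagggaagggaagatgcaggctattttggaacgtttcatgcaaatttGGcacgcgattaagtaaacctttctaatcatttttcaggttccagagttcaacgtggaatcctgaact
OR52B4: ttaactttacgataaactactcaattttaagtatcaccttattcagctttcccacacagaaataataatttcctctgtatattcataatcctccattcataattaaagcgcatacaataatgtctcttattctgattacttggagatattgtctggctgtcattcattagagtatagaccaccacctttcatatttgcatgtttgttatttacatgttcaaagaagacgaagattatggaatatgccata

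OR5A2 in cluster 5 (chr11:59426414-59426663, minus strand) had 10 marked bases, the highest number among 138 upstream windows of 135 members, at a G+C content of 50.4%. Of the 10, 4 were marked in naked DNA and 6 in TMZ cells, with none in both. OR5A2 and OR56B1 were chosen after their values were seen. OR56B1 in cluster 1 (chr11:5736198-5736447, plus strand) had 8 marked bases although its G+C content was 26.8%, 4 from naked DNA and 4 from TMZ cells. OR51S1 (chr11:4849209-4849458, minus strand), which had the smallest limma adjusted p among the members when TMZ was compared with solvent, had 6, of which 2 came from naked DNA and 4 from TMZ cells. OR52B4 (chr11:4368387-4368636, minus strand), at the outer end of cluster 1, had 0 in either, as did 17 windows in all. The median window had 3 marked bases and a G+C content of 36.4%.

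In TMZ-exposed cells the density of marked G in the receptor genes did not differ measurably from that of naked DNA. The merged intervals held 12717 G sites in naked DNA, 21192 in TMZ cells and 4253 in solvent cells, with 116 to 5736 per library. As a share of a library's autosomal G sites this was 0.0650%, 0.0652% and 0.0630% in naked replicates 1, 2 and 3. In the 12 TMZ libraries the share ran from 0.0589% over a median of 0.0639% to 0.0745%, and in the 12 solvent libraries from 0.0562% over 0.0750% to 0.0799%. The naked values lay inside both ranges. On the log2 scale relative to the mean naked share, the density was 0.01 ± 0.10 (SD, n = 12) in TMZ cells and 0.16 ± 0.16 (SD, n = 12) in solvent cells, against a spread of 0.03 (SD, n = 3) in naked DNA.

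TMZ cells differed from naked DNA by 0.01 (95% interval -0.11 to 0.14, exact two-sided permutation test, p = 0.829, adjusted over 9 comparisons p = 0.829). Of the 12 TMZ libraries, 5 were above and 3 below all naked libraries. The interval does not show equality. In set 1, the only set with naked DNA and cells together, the difference was -0.00. Solvent cells differed from naked DNA by 0.16 (interval -0.03 to 0.35, exact permutation p = 0.101, adjusted p = 0.303), with 10 of 12 libraries above all naked libraries. Without the solvent library that stood apart it was 0.20 (exact permutation p = 0.0137, adjusted p = 0.0618). In set 1, which holds that library, it was -0.05 with it and 0.11 without it. Over all libraries, with each member counting once, solvent minus naked was 0.34 (exact permutation, adjusted p = 0.00659). That setting adds 0.5 to each member's count in each library, and a member had a median of 22 sites over all solvent libraries.

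By genotype and exposure, WT cells had log2 densities of -0.01, 0.21 and 0.06 in replicates 1, 2 and 3 after 1 exposure to TMZ. WT cells had -0.03, -0.01 and -0.09 after 3 exposures. MGMT cells had 0.04, 0.16 and -0.02 after 1 exposure and 0.02, -0.05 and -0.13 after 3. Of the densities after 3 exposures, 4 of the 6 lay below all libraries with 1 exposure, so the groups overlapped. The difference was -0.12 (interval -0.23 to -0.02, exact permutation p = 0.025) and did not pass after adjustment (p = 0.112). It was -0.19 within set 2 and -0.09 within set 3, and -0.04 after the correction for base composition (exact permutation p = 0.13). It was -0.07 without replicate 2 and -0.06 with no score minimum (exact permutation p = 0.25). TMZ libraries held 2772719 to 5477076 autosomal G sites after 3 exposures and 717619 to 2630943 after 1. The part of depth in the difference was not tested.

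MGMT and WT cells did not differ measurably in these genes. Under TMZ the difference of MGMT minus WT was -0.02 (interval -0.12 to 0.09, exact permutation p = 0.69, adjusted p = 0.799), and under solvent -0.10 (interval -0.32 to 0.10, exact permutation p = 0.38, adjusted p = 0.57). Within sets 1, 2 and 3 the TMZ difference was 0.05, -0.00 and -0.06. The solvent library that stood apart had the lowest density of all libraries, at -0.20, and without it the solvent difference was -0.02 (exact permutation p = 0.795). With replicates left out in turn the solvent difference ran from -0.15 to -0.05.

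**Figure D1:**
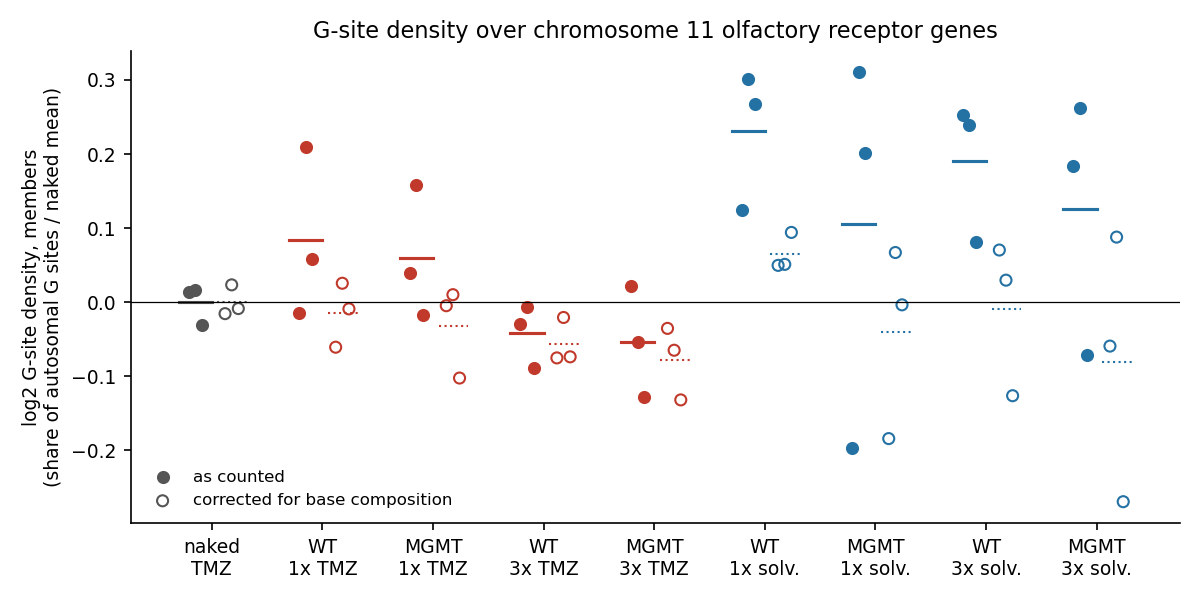
Log2 density of G sites over the chromosome 11 receptor intervals relative to the naked mean (y axis) in each of the 27 libraries, by group (x axis). Filled points are the densities as counted with group means as lines, and open points with dotted means are corrected for base composition. The TMZ libraries sit between -0.13 and 0.21 around the naked libraries, and the solvent libraries reach 0.31 as counted.

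The mean density in TMZ cells minus that in solvent cells was -0.15 (interval -0.26 to -0.04), with 11 of 12 pairs negative. The exact permutation p was 0.0127 and missed the threshold after adjustment (p = 0.112). Without the solvent library that stood apart it was -0.19 and passed (exact permutation p = 0.000512, adjusted p = 0.00461). It passed without replicate 1 too (-0.18, exact permutation, adjusted p = 0.0278) and with each member counting once (-0.29, exact permutation, adjusted p = 0.000787). The latter setting adds 0.5 to each count, which weighs most where counts are low, and the part of this addition was not tested. Pairs are libraries with the same replicate number. With these pairs as a block, TMZ minus solvent passed, as given in the closing section. Base composition moved with this difference. Among marked bases other than G, C was 19.1% in the receptor intervals and 21.7% over the autosomes, so C was rarer among them in the receptor DNA. No genome sequence was used, so this C share, from marked sites of the same libraries, stands in for base composition. The share itself differed by kind of library, with autosomal means of 14.8% in naked DNA, 22.2% in TMZ cells and 24.0% in solvent cells. In a regression over 100 kb bins, the log2 ratio to naked DNA fell with the C share by a median slope of -6.27 per unit share in solvent libraries and -1.34 in TMZ libraries, against 0.15 in naked DNA. Corrected with each library's own slope, TMZ minus solvent was -0.03 (exact permutation p = 0.43, adjusted p = 0.552), TMZ minus naked -0.05 (p = 0.136) and solvent minus naked -0.02 (p = 0.855). Without the solvent library that stood apart, whose slope was 0.48 where the other solvent slopes were all negative, the corrected TMZ minus solvent was -0.05 (exact permutation p = 0.165, adjusted p = 0.372). Solvent libraries had 116 to 633 G sites in the receptor intervals and TMZ libraries 475 to 3512, and the part of depth in the difference was not tested. Within sets 1, 2 and 3 TMZ minus solvent was 0.05, -0.17 and -0.27, and -0.14 in set 1 without that library.

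A second measure set G against the other marked bases of the same place. The log2 odds of G in the receptor intervals relative to the rest of the autosomes were -0.11 ± 0.05 (SD, n = 3) in naked DNA, -0.18 ± 0.08 (SD, n = 12) in TMZ cells and -0.13 ± 0.14 (SD, n = 12) in solvent cells. G was thus somewhat rarer among marked bases in the receptor genes than elsewhere in all 3 kinds of library. TMZ minus naked was -0.07 (interval -0.18 to 0.04, exact permutation p = 0.209, adjusted p = 0.47), TMZ minus solvent -0.05 (p = 0.321, adjusted p = 0.57) and MGMT minus WT under TMZ -0.02 (p = 0.71, adjusted p = 0.799). Without the solvent library that stood apart, whose log2 odds were -0.43, TMZ minus solvent was -0.08 (exact permutation p = 0.0483, adjusted p = 0.109). With each member counting once, and 0.5 added to its counts, it was -0.18 and passed (exact permutation, adjusted p = 0.00659). Within sets 1, 2 and 3 it was 0.08, -0.05 and -0.16, and -0.15 in set 1 without that library.

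In TMZ cells the means of the 7 clusters ran from -0.07 to 0.11. Relative to naked DNA, TMZ cells had mean log2 densities of 0.01 ± 0.09 in cluster 1, which holds the class I genes, of -0.07 ± 0.16 in cluster 2, of -0.00 ± 0.14 in cluster 4, of -0.04 ± 0.15 in cluster 5 and of 0.11 ± 0.14 in cluster 7 (SD, n = 12 each). Cluster 3, with 172 G sites in all TMZ cells, had -0.01 ± 0.73, and OR2AT4 alone had 0.02 ± 0.23. Solvent means were highest in cluster 4 at 0.24 ± 0.30 and lowest in cluster 6 at 0.03 ± 0.57. Class I minus class II differed between TMZ cells and naked DNA by -0.04 (exact permutation p = 0.556) and between TMZ and solvent by -0.01 (p = 0.921), with adjusted p = 0.927 and 0.99 over 20 tests of differences between gene sets. The latter was 0.03 without the solvent library that stood apart (exact permutation p = 0.541). The former was -0.21 within set 1, and ran from -0.12 to 0.01 with 1 replicate left out.

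**Figure D2:**
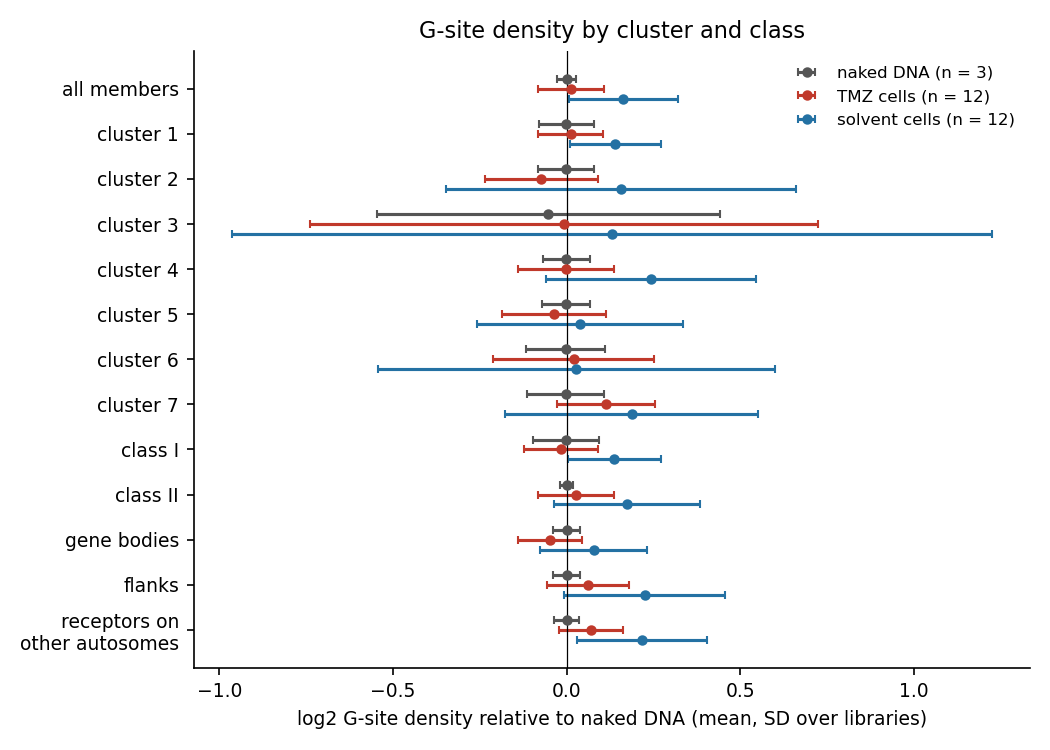
Mean log2 density of G sites relative to naked DNA (x axis) for all members, the 7 clusters, both classes, gene bodies, flanks and the receptors on other autosomes (y axis). Points are means over libraries and bars are SD, for 3 naked, 12 TMZ and 12 solvent libraries. The TMZ means run from -0.07 in cluster 2 to 0.11 in cluster 7.

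As counted, the receptors differed from other genes in TMZ against solvent, and corrected for base composition the call depended on 1 library. The density of the receptors minus that of the other protein-coding genes of chromosome 11 (1129 genes) was 0.06 ± 0.14 (SD, n = 12) in TMZ cells and 0.34 ± 0.22 (SD, n = 12) in solvent cells, a difference of -0.28 with 11 of 12 pairs negative (exact permutation p = 0.00291, adjusted p = 0.0333). Against the other genes of all autosomes the difference was -0.22, also with 11 of 12 pairs negative (exact permutation p = 0.00406, adjusted p = 0.0333). Corrected for base composition these were -0.10 (exact permutation p = 0.035, adjusted p = 0.175) and -0.08 (exact permutation p = 0.0711, adjusted p = 0.284). Corrected and without the solvent library that stood apart, they were -0.13 (exact permutation p = 0.00166, adjusted p = 0.0333) and -0.10 (exact permutation p = 0.00929, adjusted p = 0.0464). Within sets 1, 2 and 3 the first was 0.05, -0.30 and -0.43 and the other 0.04, -0.24 and -0.35. Without that library set 1, left with 1 pair, gave -0.19 and -0.16. The first was -0.34, -0.25 and -0.25 without replicates 1, 2 and 3, with exact permutation tests giving adjusted p = 0.0154, 0.222 and 0.285. The other was -0.26, -0.19 and -0.20, with the same adjusted p. Against the 218 receptor genes on other autosomes the difference was -0.00 (exact permutation p = 0.951, adjusted p = 0.99), so the receptors of chromosome 11 did not differ measurably from receptors elsewhere in this contrast. TMZ cells against naked DNA gave 0.06, 0.03 and -0.06 for the same 3 references, with exact permutation p between 0.341 and 0.73.

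MGMT and WT cells differed when chromosome 11 receptors were set against receptors elsewhere. The difference was -0.15 under TMZ (6 of 6 pairs negative, exact permutation p = 0.005, the smallest it can give, adjusted p = 0.0333) and -0.27 under solvent (6 of 6 pairs negative, exact permutation p = 0.015, adjusted p = 0.06). Receptors on chromosome 11 had MGMT minus WT values of -0.02 for G sites and -0.00 for A, C and T sites under TMZ. The 61 receptors on chromosome 1 had 0.40 for G sites and 0.38 for A, C and T sites under TMZ, and all 6 MGMT libraries lay above all WT libraries. Under solvent chromosome 1 had 0.43 and 0.38. The shift on chromosome 1 was thus present at bases other than G at nearly the same size, and its part in the difference between receptor sets was not tested. Within sets 1, 2 and 3 that difference was -0.05, -0.15 and -0.18 under TMZ. It was -0.19 to -0.13 with 1 replicate left out, where no exact p under 0.0556 is possible.

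Within the intervals, gene bodies had 9299 and flanks had 11893 G sites in TMZ cells, with mean log2 densities of -0.05 ± 0.09 and 0.06 ± 0.12 relative to naked DNA (SD, n = 12). Bodies minus flanks was -0.11 in TMZ cells against naked DNA (exact permutation p = 0.0901, adjusted p = 0.3). It was 0.01 within set 1, and ran from -0.15 to -0.08 with 1 replicate left out. Under TMZ, bodies minus flanks was -0.05 ± 0.09 in MGMT and -0.17 ± 0.06 in WT cells (SD, n = 6 each), a difference of 0.12 with 6 of 6 pairs positive (exact permutation p = 0.01, adjusted p = 0.05, on the threshold). It was 0.33, 0.03 and 0.12 within sets 1, 2 and 3. Under solvent the same difference was 0.09 (exact permutation p = 0.51, adjusted p = 0.927), and -0.02 without the solvent library that stood apart (exact permutation p = 0.835).

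Along the 67 members of at most 1100 bp with a known strand, the first 1 kb from the gene start, which holds the coding exon, was the richest bin in naked DNA. It had 0.403 ± 0.041 G sites per 1000000 autosomal G sites and member in naked DNA (SD, n = 3), 0.339 ± 0.067 in TMZ cells and 0.338 ± 0.088 in solvent cells (SD, n = 12 each). The 1 kb before the start had 0.225 ± 0.016, 0.238 ± 0.041 and 0.279 ± 0.10. Both strands were marked about equally. In the bodies of 135 members the coding strand held 53.1% ± 2.6 of G sites in naked DNA (SD, n = 3), 51.1% ± 3.3 in TMZ cells and 54.8% ± 5.5 in solvent cells (SD, n = 12 each), and the ranges overlapped.

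**Figure D3:**
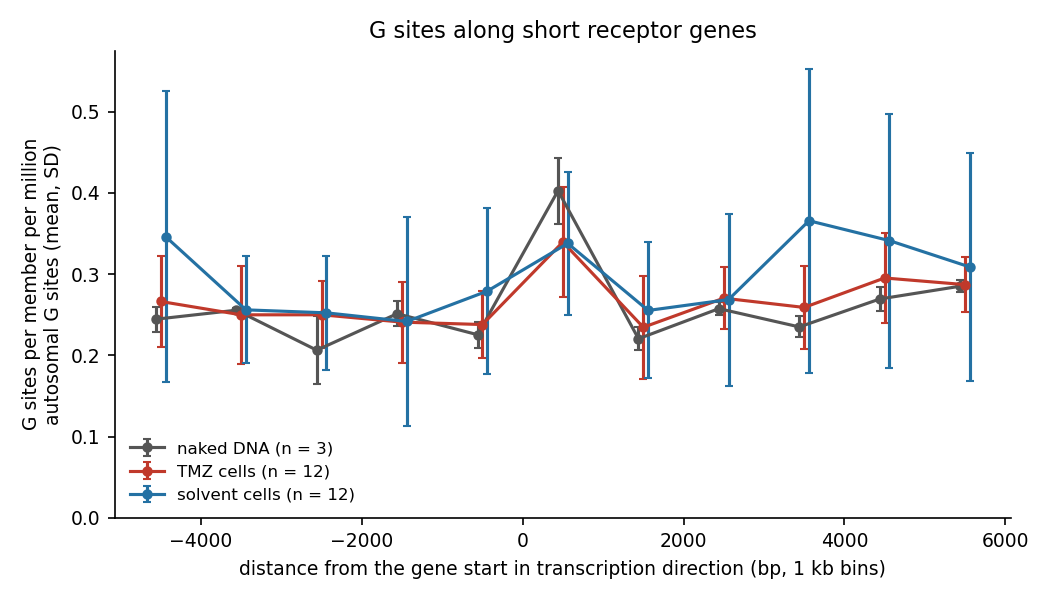
G sites per 1000000 autosomal G sites and member (y axis) in 1 kb bins by distance from the gene start in the direction of transcription (x axis), over 67 members. Points are means and bars SD over 3 naked, 12 TMZ and 12 solvent libraries. The bin after the start reaches 0.403 in naked DNA and 0.339 in TMZ cells.

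Upstream of the receptor genes the base before a marked G was mostly a purine, in cells as in naked DNA. In the windows from 250 bases before to 50 after the start of 135 members, naked DNA marked 52.3 per 10000 G after A, 76.8 after G, 24.4 after T and 41.9 after C per library, the last from 5 marks. TMZ cells marked 23.8 after A, 25.6 after G, 7.83 after T and 6.28 after C, the last from 3 marks. Purines preceded 78.8% of the marks in naked DNA and 83.0% in TMZ cells, but 63.3% in solvent cells, where they precede 60.6% of all G in these windows. The same shares in the windows of other protein-coding genes were 78.6%, 79.3% and 58.8%.

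At the annotated gene starts, receptor windows were marked less often per G than those of other genes in naked DNA and in TMZ cells. Whether the annotated start of a receptor gene is where its transcription starts was not tested. Members ran from 912 bp to 165335 bp (median 1103 bp), so the windows of short members may lie at the coding sequence and not at a promoter. The ratio of marks per G, receptors over 14789 other protein-coding genes, was 0.573 in naked DNA (95% exact interval 0.50 to 0.654) and 0.577 in TMZ cells (0.517 to 0.642). In solvent cells it was 0.984 (0.75 to 1.27, from 60 marks). These intervals cover counting error only. Marks per 10000 G per library were 47.5 in members, 62.4 in receptors on other autosomes and 82.8 in other genes in naked DNA, and 17.9, 24.0 and 31.0 in TMZ cells, so receptors elsewhere lay between. The windows of receptors had a G+C content of 37.8%, against 39.7% for receptors on other autosomes and 61.2% for other genes. The homeodomain motif TAATTA, which equals its reverse complement, was found in 23.2% of the upstream parts of member windows, in 18.4% of those of other receptors and in 2.93% of those of other genes. The motif holds only A and T, and the windows differ in G+C content. The part of base composition in these shares was not tested, so they do not show enrichment of the motif.

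**Figure D4:**
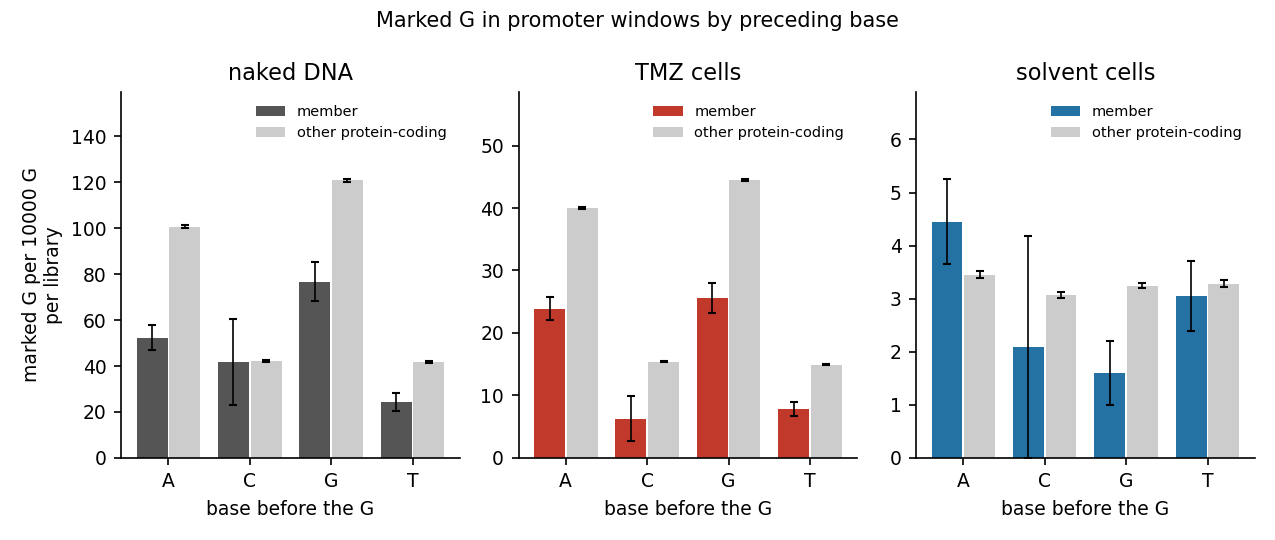
Marked G per 10000 G per library (y axis, each panel with its own scale) by the base before the G (x axis). Panels show naked DNA, TMZ cells and solvent cells, with windows at the gene starts of members and of other protein-coding genes. Bars are pooled rates and error bars the square root of the number of marks. Marks after A and G exceed those after T in naked DNA and TMZ cells, in both kinds of window.

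Single receptor genes held few sites. Over all libraries of a kind, a member had 1 to 1077 G sites in naked DNA (median 66), 4 to 1579 in TMZ cells (median 111.5) and 0 to 327 in solvent cells (median 22). Per kb, naked DNA had a median of 5.16 per member, against 8.70 over all genes. OR2AT4, a lone receptor known to respond to sandalwood odorants, had the highest density with 11.7 per kb in naked DNA, and OR52W1 (8.76) and OR51D1 (8.73) followed. OR52N5 had the lowest with 0.0582 per kb, from 1 site, before OR56B2 (1.06) and OR4A47 (1.92). A score of 30 was reached by 5 of 10 G sites in OR52N5, 92.1% of those in OR56B2 and 55.4% of those in OR4A47, against a median of 93.0% over members. OR5F1 had the lowest share, 32.1%, and was named after this value was seen.

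Pooled over libraries, TMZ cells relative to naked DNA gave a median log2 ratio of 0.01 over the 168 members, with 86 above and 82 below 0. Over 19639 genes the median was -0.01. The ratio was highest in OR52N5 at 1.249, from 4 and 1 sites (95% exact counting interval -2.09 to 6.87), in OR4A47 at 0.61 (-0.14 to 1.41) and in OR5P2 at 0.55 (0.01 to 1.11). It was lowest in OR51G1 at -0.52 (-1.02 to -0.02), OR8K3 at -0.51 (-0.93 to -0.08) and OR5M3 at -0.51 (-1.0 to -0.01). The counting interval lay above 0 in 4 members and below 0 in 6, or 5.95% of members, against 16.9% of all genes. Such intervals are wider where sites are few, and all genes were not matched to members in number of sites. These shares thus do not show that members depart less from naked DNA than other genes. At the ends of the clusters it was 0.50 in OR52B4, 0.20 in OR10A3, -0.12 in OR4B1, 0.13 in OR4C13, 0.14 in OR4C12, -0.14 in OR4C46, 0.19 in OR5AK2, -0.20 in OR9Q1, -0.38 in OR10V1, 0.06 in OR2AT4, 0.27 in OR6X1 and 0.43 in OR8A1.

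**Figure D5:**
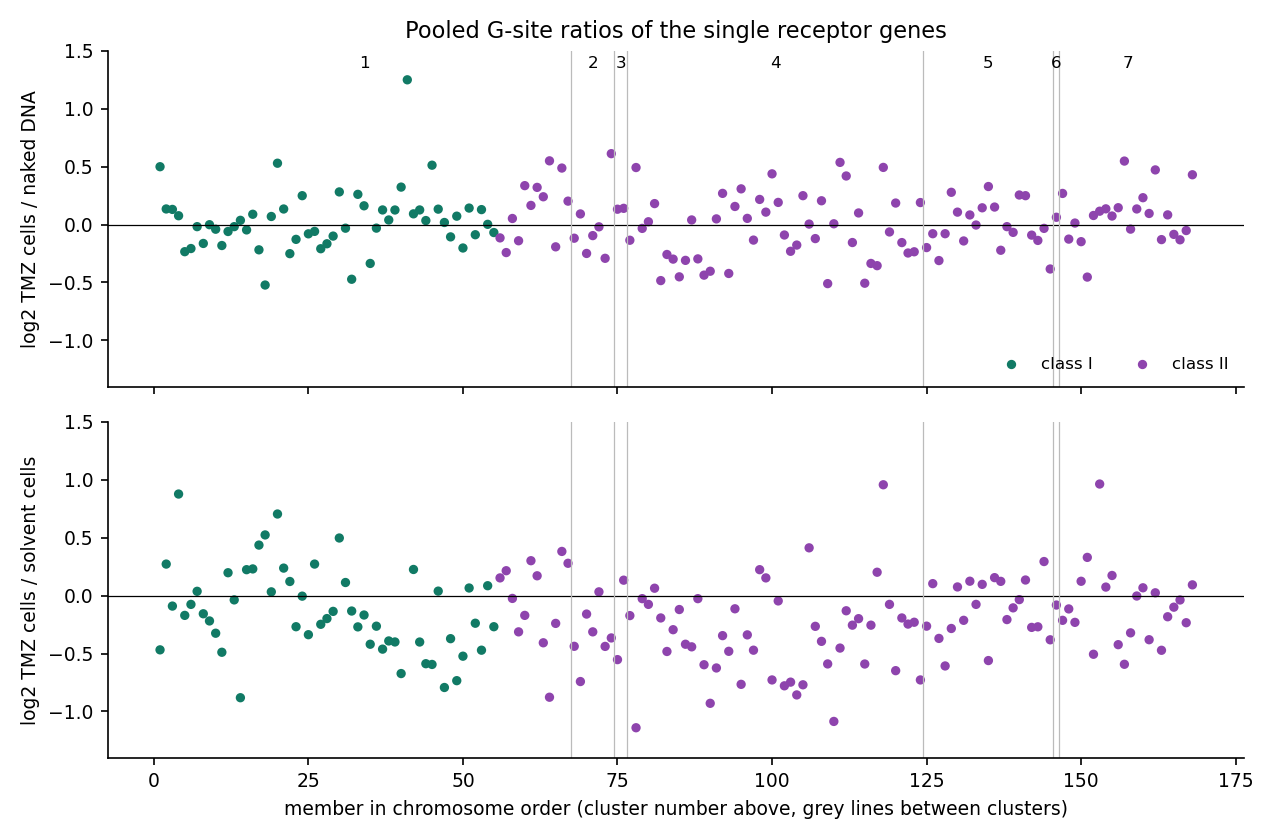
Log2 ratio of pooled G sites, scaled to autosomal G sites, for each member in chromosome order (x axis), TMZ cells over naked DNA above and TMZ over solvent cells below (y axes), coloured by class. Above, 86 of 168 members lie over 0, and below, 118 of 167 lie under 0. Over all genes, 52.1% lie under 0 in the ratio to naked DNA and 30.8% in the ratio to solvent cells. OR52N5 has 0 solvent sites and no point below.

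A fit across 19269 genes with limma's voom was made on the sites of each gene with its flanks. Of the 168 members, 163 passed the filter of at least 10 sites in at least 3 libraries, and OR56B2, OR52N5, OR4A47, OR5D14 and OR5T3 did not. Neighbouring members share the sites of overlapping flanks. For TMZ cells against naked DNA 0 of 163 members passed an adjusted p of 0.05, where 0.0363% of all genes did (0.0156% higher and 0.0208% lower). At an unadjusted p under 0.05 there were 6 members, 4 higher and 2 lower, which is 3.68% against 12.3% of all genes. All genes were not matched to members in number of sites here either. The members' median log2 fold change was 0.05.

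For TMZ against solvent, 23 members were lower and 0 higher, or 14.1% of those tested, where 7.09% of all genes were lower and 6.49% higher (13.6% in all). At an unadjusted p under 0.05 it was 57 members, or 35.0%, against 28.4% of all genes. The members' median log2 fold change was -0.40 against -0.01 over all genes, and 144 of 163 members were below 0 (88.3%, against 51.4% of all genes). This fit centres on the typical gene. Against the autosomal total the pooled TMZ over solvent ratio had a median of -0.21 in members and 0.17 over all genes, a distance of -0.37. Of the 23 called members, 10 were among 46 tested in cluster 4, 7 among 65 in cluster 1 and 3 among 22 in cluster 7. In cluster 5 it was 2 of 21 and in cluster 2 it was 1 of 6. Of the 23, 6 were class I. The median of the 23 called members was -0.87 in the fit and -0.62 in the pooled ratio, which uses the same sites with no added count. Their pooled ratios of TMZ cells to naked DNA ran from -0.40 to 0.55 with a median of 0.04. Without replicates 1, 2 and 3 the count was 9, 7 and 4, or 5.66%, 4.64% and 2.47% of members tested, where 6.45%, 1.39% and 1.83% of all genes were lower. Without the solvent library that stood apart it was 30, or 18.4%, among them 22 of the 23, where 9.59% of all genes were lower. With 50 kb on each side it was 89, or 53.0%, where 12.4% of all genes were lower and the intervals of neighbours overlap further. Base composition, which differed as given above, was not a term of these fits. The shares over all genes were not matched to members in number of sites. A member had a median of 22 sites over all solvent libraries, and the part of low counts in the calls was not tested.

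OR51S1, a class I receptor of cluster 1, had the smallest adjusted p. It had 2.77, 3.06 and 3.71 sites per 1000000 autosomal G sites in the naked libraries, 1.21 to 4.55 (median 3.21) in TMZ cells and 1.68 to 11.2 (median 6.51) in solvent cells, where each library held 1 to 6 sites. The ranges of TMZ and solvent cells overlapped, and the naked values lay within both ranges. Its log2 fold change, TMZ against solvent, was -1.20 (SE 0.25, limma adjusted p = 0.000729), and the pooled ratio was -0.88. It lost the call without replicate 3 (-1.01, limma adjusted p = 0.0606) and with 50 kb flanks (-0.33, limma adjusted p = 0.0656).

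The class II receptors OR4A5, OR5D18 and OR5J2 of cluster 4 and the class I receptor OR56B4 of cluster 1 followed. OR4A5 had 0.353 to 3.62 sites per 1000000 autosomal G sites (median 2.40) in TMZ cells and 0 to 8.37 (median 5.16) in solvent cells, and a log2 fold change of -1.18. OR5D18 had 0 to 5.33 (median 2.86) and 0 to 11.2 (median 3.80), and a log2 fold change of -1.14. OR56B4 had medians of 2.54 and 3.79 and -1.17, and OR5J2 medians of 1.85 and 3.22 and -1.14. Their limma adjusted p ran from 0.00615 to 0.00853, and in each the TMZ and solvent libraries overlapped. The pooled ratios of TMZ to solvent were -1.14 in OR4A5, -0.62 in OR5D18, -0.47 in OR56B4 and -0.86 in OR5J2. The fitted changes were thus larger in size than the pooled ones, most in OR5D18 and OR56B4. The pooled ratios are set against the autosomal total, and the fit centres on the typical gene. Over all genes the median was 0.17 in the pooled ratio and -0.01 in the fit, a smaller distance than the gaps in OR5D18 and OR56B4. The fit also adds to each count and weighs the libraries, and the part of these steps in the gaps was not tested. Without replicates 1 and 2, with only the groups compared and with naked DNA left out for the replicate block, OR4A5 did not pass the filter and was not tested. OR5J2 was not tested with only the groups compared or with the replicate block. Without replicate 3, OR4A5 (-0.87, limma adjusted p = 0.147), OR5D18 (-0.80, 0.164) and OR56B4 (-1.18, 0.066) lost the call. OR56B4 (-0.99, 0.0671) and OR5J2 (-0.70, 0.179) lost it without replicate 1, and OR5J2 (-1.04, 0.164) without replicate 2.

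For 3 against 1 exposures under TMZ, limma called 0 members, and 0% of all genes. At an unadjusted p under 0.05 there were 21 members, 20 of them lower, or 12.9% against 9.63% of all genes. The members' median was -0.20 with 129 of 163 below 0 (79.1%), against -0.01 and 52.2% over all genes. The exposures differed in depth as given above, and its part was not tested. Base composition was not a term of this fit. In this contrast and the next, all genes were not matched to members in number of sites. For MGMT against WT under TMZ limma called 1 member, where 8.58% of all genes were called (5.72% higher and 2.86% lower). This was OR4A15, a class II receptor of cluster 4. It had 1.21, 4.26 and 3.04 sites per 1000000 autosomal G sites after 1 exposure and 3.12, 3.10 and 2.21 after 3 in WT cells. In MGMT cells it had 0, 1.15 and 0 after 1 exposure and 1.80, 1.87 and 1.76 after 3. All MGMT libraries but those 3 with 1.76 to 1.87 lay below the lowest WT library, with 21 sites in MGMT and 56 in WT cells. The log2 fold change was -1.29 (SE 0.39, adjusted p = 0.0244), and it lost the call without replicates 1, 2 and 3, where the fold change was -1.34, -1.39 and -1.13 (limma adjusted p = 0.0637, 0.0775 and 0.233).

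The 18 genes of olfactory signalling and receptor choice off the list of receptors (such as GNAL, the olfactory G protein, ADCY3, the adenylate cyclase it activates, and LHX2 and EBF1, transcription factors of receptor genes) were all tested. For TMZ against naked DNA, and for 3 against 1 exposures, 0 passed. For TMZ against solvent 2 of the 18 passed, where 13.6% of all genes did. GNG13, a G protein gamma subunit, rose by 1.20 (SE 0.29, limma adjusted p = 0.00417), and RIC8B, a chaperone of the olfactory G protein, fell by 0.46 (SE 0.11, adjusted p = 0.00504). For MGMT against WT under TMZ 2 of the 18 passed, where 8.58% of all genes did. KDM1A, a histone demethylase used in receptor choice, was higher by 0.62 (adjusted p = 0.00182) and ADCY3 by 0.33 (adjusted p = 0.0305). The median of the list was between -0.07 and -0.00 in the 4 contrasts.

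Few single bases recurred. The receptor intervals held 35976 distinct G positions over all libraries, of which 5.57% were marked in more than 1 library, against 6.84% in the rest of chromosome 11. In TMZ cells 3.44% of the members' positions recurred, against 4.32% in the rest of the chromosome, and in naked DNA 1.31% against 1.59%. In the rest of chromosome 11, 544 of 2490936 positions were marked in 5 or more libraries, and in the receptor intervals 3 were. One in the flank of OR2AT4 (position 75098867, plus strand) was marked in 6 libraries, 2 naked and 4 TMZ. One inside OR52K1 (position 4493399, minus strand) was marked in 1 naked, 3 TMZ and 1 solvent library, and one in the flank of OR51E1 (position 4659504, plus strand) in 2 naked and 3 TMZ libraries.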

How the data were processed

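Per the labels' protocols, O6-MeG-seq libraries were made from 27 DNA samples of LN-229 cells. The submitters' processing notes name FastQC 0.11.9, Trimmomatic 0.38 and 0.39, cutadapt, Bowtie2 2.3.5.1, GATK 4.2.0.0, SAMtools 1.12 and bedtools 2.29.2 and the build GRCh38, with no role or order. The files deposited by the authors list marked bases with position, strand, base and a number taken here as a score, since it ranges like a mapping quality. The sources used here do not state what it is. In the windows at member gene starts the base equalled RefSeq in 1318 of 1318 sites.

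G sites with a score of at least 30 were counted in genes with 5 kb on each side. Densities and odds were set against each other by exact permutation (two-sided), adjusted over 9 comparisons with the Benjamini-Hochberg method. The 95% intervals came from test inversion. Libraries were permuted within the other factors between cell groups. In comparisons with naked DNA they were permuted freely, so the 12 cell libraries of a treatment counted as a single group whatever their genotype and exposures. A further 20 tests of differences between gene sets, with their values within sets of libraries, were chosen after seeing the data and adjusted together. Gene counts were fitted over all 27 libraries with limma 3.58.1 (voom, trimmed-mean sizes, R 4.3.3), p adjusted over 19269 genes. The fit was tested on simulated data with 200 genes changed 2-fold. It recovered 72.9% of those tested for TMZ against naked DNA, with 13 of 158 calls false. For TMZ against solvent it was 80.0%, with 16 of 176 false. For 3 against 1 exposures it was 62.3% (8 of 132 false), and for MGMT against WT 57.8% (3 of 118 false). It was not run for genes at the depth of the members. Members, gene lists, clusters and tests were chosen with earlier results of these data known. Named members were the cluster ends, the 3 highest and lowest by naked density and by TMZ over naked, and up to 5 per direction past the threshold of a fit. Replicate numbers were checked for pairing on 1 Mb bins. Same-numbered libraries correlated above 0.1 in 7 of 12 genotype pairs, 6 of 12 treatment pairs and 1 of 6 exposure pairs, so the main tests assumed no pairing. Of 24 cell libraries, 15 correlated best with their own number in the other genotype. Most same-numbered libraries of an exposure number also lay in the same set. Counts of pairs by direction are given as description only. p-values measure the spread between these libraries.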

Additional observations from a re-analysis of the deposited data

How the results depend on the processing

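Of the 87 recomputed densities and odds, 69 kept direction and side of the threshold, 13 changed sign without passing it, and 5 newly passed. With each member counting once (0.5 added), solvent minus naked was 0.34 (adjusted p = 0.00659), TMZ minus solvent -0.29 (adjusted p = 0.000787) and its G odds -0.18 (adjusted p = 0.00659), all in exact permutation tests. TMZ minus solvent also passed without replicate 1 (-0.18, adjusted exact permutation p = 0.0278) and in the fit with the replicate block (-0.15, adjusted exact permutation p = 0.0469). TMZ minus naked turned to -0.0096 with no score minimum, -0.049 in gene bodies only, -0.045 corrected for composition and -0.056 with solvent sites subtracted, and ran from -0.011 to 0.025 with 1 replicate left out. Solvent minus naked turned to -0.016 when corrected. MGMT minus WT under TMZ turned to 0.0014 against the rest of chromosome 11, 0.046 in gene bodies and 0.0040 with sites of more than 1 library left out, and ran from -0.053 to 0.0013 with 1 replicate left out. Its odds turned to 0.050 in gene bodies and 0.011 without those sites, and ran from -0.065 to 0.022. TMZ minus solvent ran from -0.18 to -0.13.

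Members called for TMZ against solvent were 15 when limma-trend and median-of-ratios sizes replaced both choices (9.20% of members, where 5.70% of all genes were lower). They were 89 with 50 kb flanks (53.0% against 12.4%) and 4 to 9 with 1 replicate left out. With only the groups compared, so without naked DNA, they were 17 of 145 tested (11.7% against 7.65%). On those same libraries with the replicate block they were 13 (8.97% against 6.94%). For 3 against 1 exposures 1 was called with no score minimum (0.606% of members, 2.23% of all genes). For MGMT against WT 0 were called under that same pair of changes (0.903% of all genes) and with 50 kb flanks (26.0% of all genes), 5 with only the groups compared (3.45% of members, 13.7% of all genes) and 0 to 1 with 1 replicate left out (2.86% to 6.62% of all genes). The cause was not tested. In genes, the block was not run for comparisons with naked DNA or between exposures, because it is nested in the exposure number. With 1 replicate left out, no exact p under 0.0556 is possible for exposures and genotypes. A member had a median of 22 sites over all solvent libraries.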
